A study of Drosophila melanogaster with 12 samples.

Results

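Yolk protein genes and the receptor that takes up their products were examined in cell fractions of the Drosophila melanogaster ovary. The set comprised 4 genes, Yp1, Yp2, Yp3 and yl, each taken with every probe set that the platform annotation gives to that symbol alone. Each gene had 1 probe set, so that 4 of 13966 probe sets other than controls, and 4 of 10843 genes with a probe set of their own, were described. All 4 passed the filter on low signals, which kept 9753 probe sets for testing. The 12 arrays fell into 4 groups of 3 numbered replicates from ovaries of females aged 2 to 7 days; the age is missing from the labels of 1 array, and the genotype from those of 1 other, whose title gave its group. The labels do not say whether replicates came from separate preparations, so p-values measure only the spread between these samples, which may be technical. Wild-type flies carried slbo-Gal4 and UAS-mCD8-GFP over a wild-type chromosome, and mutant flies carried slbo-Gal4 with slboe7b over UAS-mCD8-GFP with slboLy6, so that driver and membrane tag were common to all groups. Cells that bound magnetic beads coated with an antibody against mouse CD8 were called migratory, and cells without the tag were called nonmigratory. By design the migratory fraction holds cells in which slbo-Gal4 is active, which are known to include follicle cells other than border cells. The nonmigratory fraction is a mixture of all other cells. The purity of the fractions was not tested. The summed signal of 11 gut genes lay between 2288.2 and 5132.8 in wild-type and between 16646.0 and 25246.6 in mutant migratory arrays.

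Drosophila yolk proteins are made in the fat body and in the ovarian follicle cells, secreted, and taken up into the growing oocyte. The receptor yolkless, encoded by yl, belongs to the low-density lipoprotein receptor family, is made in the germline and carries yolk proteins into the oocyte through clathrin-coated vesicles. In the ovary the yolk protein genes are known for strong transcription in follicle cells around the oocyte during vitellogenesis, and their transcription depends on the sex determination and hormone pathways. All 4 genes lie on the X chromosome, where Yp1 and Yp2 are direct neighbours and Yp3 and yl each lie apart from them.

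Signals were MAS5 values on a linear scale, scaled by the authors to the same trimmed mean on each array. The slbo signal, which checks the mutant, lay between 167.2 and 275.2 in wild-type migratory cells and between 35.1 and 51.4 in mutant migratory cells. In nonmigratory cells it lay between 113.1 and 148.9 in wild type and between 19.0 and 87.3 in the mutant. Among 12 follicle cell markers all had a mean signal above 39.2, the mean 95th percentile of 23 control probe sets for absent transcripts, and 10 of 12 germline markers did so, with BicC and bam below it. Of 5 fat body markers, 3 were above that level (Lsp2 at 61.0, Fbp1 at 44.0 and Apoltp at 69.0) and 2 were below it (apolpp at 20.3 and Fbp2 at 8.9), and the summed signal of the 5 ranged from 153.1 to 266.8 over all arrays. In such tissue samples fewer cells of a type and less RNA per cell cannot be told apart.

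The 3 yolk protein probe sets were among the brightest on every array. Yp1, which encodes yolk protein 1, gave signals of 22709.1, 28793.5 and 24273.0 in wild-type migratory cells and of 26349.5, 27157.8 and 26774.7 in wild-type nonmigratory cells. In the mutant its signals were 20896.1, 26633.4 and 25468.1 in migratory cells and 21486.2, 22071.2 and 23463.5 in nonmigratory cells. The mutant nonmigratory arrays of Yp1 lay below all 3 wild-type nonmigratory arrays, whereas the migratory arrays of both genotypes overlapped each other. Its signal ranked between 1 and 3 among the 13966 probe sets on each array, and the highest of the 12 signals was 1.38 times the lowest.

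Yp2, the neighbour of Yp1, gave 23150.4, 28344.4 and 23316.6 in wild-type migratory cells and 26294.6, 28641.5 and 28205.2 in wild-type nonmigratory cells. In the mutant it gave 22564.2, 25736.3 and 26842.8 in migratory cells and 21915.4, 20889.6 and 24396.9 in nonmigratory cells. As for Yp1, the only pair of groups of 1 fraction or 1 genotype that did not overlap was the mutant and wild-type nonmigratory pair. Yp2 ranked between 1 and 4 and was the brightest probe set of all on 5 arrays, Yp1 on 1 array, and the vitelline membrane gene Vm34Ca on the other 6 arrays. A yolk protein probe set thus set the top of the signal range on 6 of 12 arrays.

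Yp3, which encodes the third yolk protein, gave 16733.7, 21454.6 and 16378.4 in wild-type migratory cells and 16898.2, 18877.2 and 20934.7 in wild-type nonmigratory cells. In the mutant it gave 15633.3, 17494.1 and 17512.0 in migratory cells and 14463.1, 14977.7 and 16054.4 in nonmigratory cells. The mutant nonmigratory signals lay below all wild-type signals of both fractions, but overlapped with those of the mutant migratory cells. Yp3 ranked between 6 and 34, at 59.8% to 74.4% of the top signal of its array, against at least 86.8% for Yp1 and 91.5% for Yp2.

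The receptor gene yl had a signal far from the top of the range and varied more. It gave 320.2, 211.8 and 409.8 in wild-type migratory cells, with a mean of 313.9 (SD 99.1, n = 3), and 209.8, 246.8 and 304.9 in wild-type nonmigratory cells, with a mean of 253.8 (SD 47.9). In the mutant it gave 609.0, 438.6 and 452.0 in migratory cells, with a mean of 499.9 (SD 94.7), and 411.1, 351.3 and 333.2 in nonmigratory cells, with a mean of 365.2 (SD 40.8). Within each fraction every mutant array was above every wild-type array, and in the mutant every migratory array was above every nonmigratory array. The wild-type fractions overlapped, and wild-type migratory replicate 3 lay above mutant nonmigratory replicates 2 and 3. By group means yl was highest in mutant migratory cells, followed by mutant nonmigratory, wild-type migratory and wild-type nonmigratory cells, and of these neighbours only the first pair did not overlap. Its rank on an array lay between 979 and 2710, and the highest of the 12 signals was 2.9 times the lowest.

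**Figure D1:**
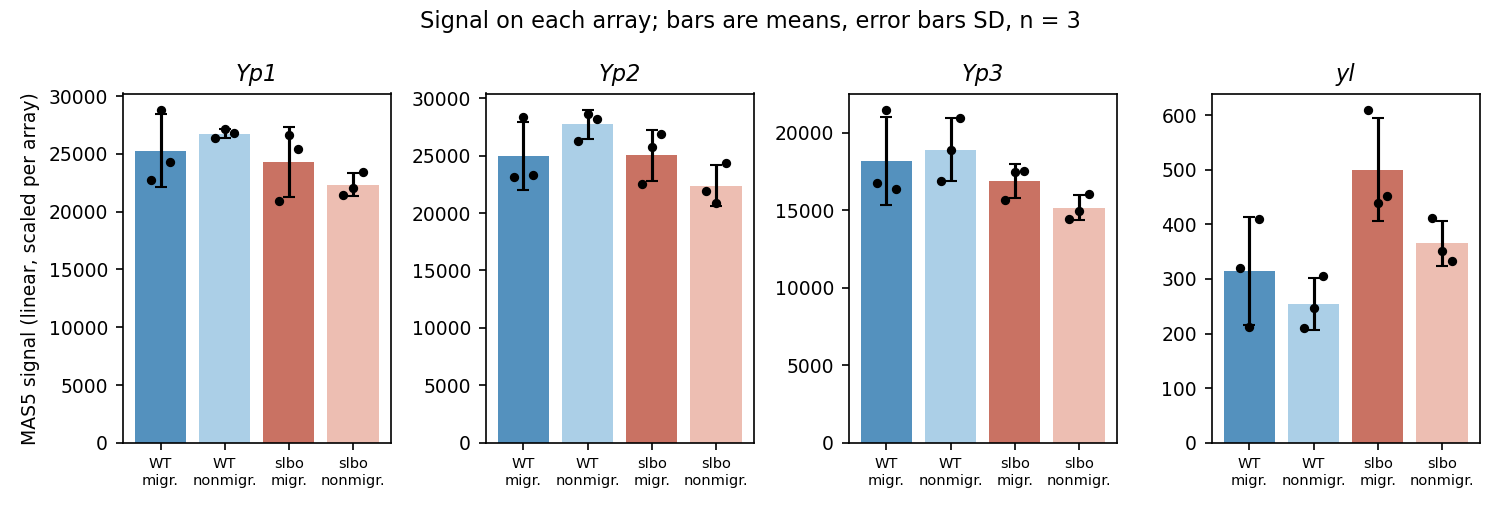
MAS5 signal on a linear axis for Yp1, Yp2, Yp3 and yl; points are the 12 arrays, bars are group means and error bars are SD (n = 3). The yolk protein signals lie between 14463.1 and 28793.5 in all groups, while the yl signals lie between 209.8 and 609.0 with the mutant arrays above the wild-type arrays of the same fraction.

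The first comparison asked how the fractions differed within wild-type ovaries. None of the 4 probe sets was called at a Benjamini-Hochberg adjusted p of 0.05 by limma, where 8.42% of tested probe sets were called. The log2 differences of the yolk protein genes, migratory minus nonmigratory, lay between -0.16 and -0.06, with 95% intervals within -0.39 and 0.19 (adjusted p from 0.469 to 0.845). For yl the difference was 0.27 (95% interval -0.21 to 0.74, adjusted p = 0.577). At an unadjusted p of 0.05 none of the 4 passed either. In the slbo mutant, where 8.29% of probe sets were called, again none of the 4 was called and none had an unadjusted p under 0.05. The yolk protein differences were 0.12 for Yp1, 0.16 for Yp2 and 0.15 for Yp3, with 95% intervals within -0.12 and 0.40. For yl the difference was 0.43 (SE 0.222, adjusted p = 0.276), although the arrays of the 2 fractions did not overlap. The ratio of 5′ to 3′ GAPDH signals, a measure of RNA integrity, ranged from 0.0783 to 0.0947 and from 0.158 to 0.200 in the wild-type migratory and nonmigratory arrays, and from 0.0932 to 0.150 and from 0.134 to 0.184 in those of the mutant. Its part in these differences was not tested.

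Averaged over genotypes, with 6 arrays in each fraction, Yp1 differed by 0.01, Yp2 by 0.00 and Yp3 by 0.05 on the log2 scale. Their 95% intervals lay within -0.16 and 0.22, and none was called, against 16.7% of all tested probe sets. With arrays centred on the 100 brightest other probe sets, a setting chosen after the data were seen, these differences were 0.145, 0.134 and 0.179 and all 3 were called, and with quantile normalization that of Yp3 was called at 0.182. yl was higher by 0.35 (SE 0.157, unadjusted p = 0.0415, adjusted p = 0.155, limma). The exact two-sided permutation p for 6 against 6 arrays was 0.190, unadjusted and with arrays shuffled without regard to genotype. Without wild-type migratory replicate 2, the dimmest migratory array for yl, the difference was 0.48 (adjusted p = 0.0247). The change of the fraction difference between genotypes, tested as an interaction, was between 0.21 and 0.32 for the yolk protein genes and 0.17 for yl (adjusted p from 0.747 to 0.958). None of the 4 was called or had an unadjusted p under 0.05 there, and 0% of all probe sets were called, although 660 had an unadjusted p under 0.05.

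The second question was whether loss of slbo, which encodes a C/EBP transcription factor required for border cell migration, changed these transcripts. In migratory cells the mutant minus wild-type difference was -0.05 for Yp1, 0.01 for Yp2 and -0.10 for Yp3, with 95% intervals within -0.35 and 0.24. For yl it was 0.69 (SE 0.222, 95% interval 0.22 to 1.17), with an unadjusted p of 0.00715 and an adjusted p of 0.153. None of the 4 was called, where 1.81% of probe sets were. In nonmigratory cells, where 0.656% of probe sets were called, none of the 4 was called. Each had an unadjusted p under 0.05 by limma, and the groups did not overlap for any of the 4. Over all 9753 tested probe sets, 882 had an unadjusted p under 0.05 in that comparison. How many of all tested probe sets had groups that did not overlap was not counted in any comparison. The lack of overlap, here and for yl above, is therefore given as a description only. There the yolk protein differences were -0.26 for Yp1 (95% interval -0.50 to -0.02), -0.31 for Yp2 (-0.54 to -0.08) and -0.31 for Yp3 (-0.56 to -0.06), with adjusted p from 0.330 to 0.481. The difference of yl was 0.52 (95% interval 0.05 to 1.0, adjusted p = 0.481).

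Averaged over fractions, yl rose in the mutant by 0.61 on the log2 scale, a fold of 1.52 (SE 0.157, 95% interval 0.27 to 0.94, n = 6 per genotype). The adjusted p was 0.0487 by limma (unadjusted p 0.00154), just under the threshold. The exact two-sided permutation p for 6 against 6 arrays was 0.0108, unadjusted and with arrays shuffled without regard to fraction. yl was 1 of 4 members called, where 3.25% of all probe sets were called, and it stood at place 309 of 9753 when probe sets were ordered by p. The call depended on single arrays: leaving out 1 array ended it in 10 of 12 cases, all but wild-type migratory replicate 3 and wild-type nonmigratory replicate 3, and the 12 adjusted p values ranged from 0.0173 to 0.131 with log2 differences from 0.48 to 0.71. The yolk protein differences were -0.16 for Yp1, -0.15 for Yp2 and -0.21 for Yp3, with adjusted p from 0.261 to 0.416; the exact permutation p was 0.0346 for Yp3, 0.0693 for Yp1 and 0.0909 for Yp2.

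**Figure D2:**
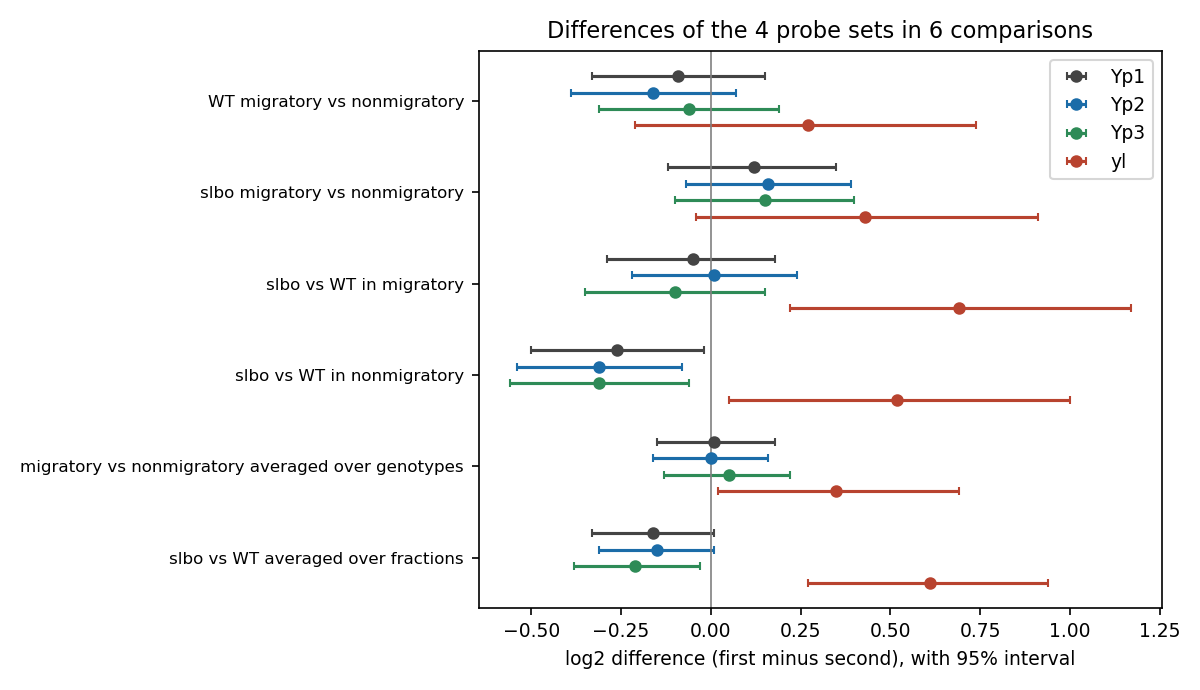
Fitted log2 differences (first group minus second) of the 4 probe sets in 6 comparisons, with 95% intervals from the moderated variance, not adjusted for multiple testing. The intervals of yl are wider than those of the yolk protein genes, and only the yl difference averaged over fractions (0.61) was called.

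Because the yolk protein signals lay near the top of the range, they were set beside other bright probe sets. The mean log2 signal of Yp1, Yp2 and Yp3 varied over 0.45 between arrays, from 14.21 to 14.66. The median log2 signal of the 100 brightest other probe sets varied over a similar 0.44, from 13.39 to 13.83. Their difference within an array varied over 0.30, from 0.65 to 0.95, and was lowest on the 3 mutant nonmigratory arrays, at 0.65, 0.70 and 0.69. Wild-type nonmigratory replicates 1 and 2 came close to these, at 0.71 and 0.75, with replicate 3 at 0.91. The migratory arrays of both genotypes lay between 0.86 and 0.95. The 100 brightest probe sets, with the 3 yolk protein probe sets among them, had a median log2 difference between genotypes of -0.22 in nonmigratory cells. Over all tested probe sets the median was 0.01. The yolk protein differences of -0.26 to -0.31 thus lay close to the median of the bright probe sets. With the same centring on the 100 brightest other probe sets, the genotype differences in nonmigratory cells were -0.08 for Yp1, -0.13 for Yp2 and -0.13 for Yp3. With quantile normalization they were 0.03, 0.07 and -0.02. That setting gives each probe set the value for its rank. Yp1 ranked 1 to 3 and Yp2 ranked 1 to 4 on every array, so for them it could show only changes of place among those ranks. The direction of the yolk protein differences changed in several comparisons with that setting or with centring on the bright probe sets.

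**Figure D3:**
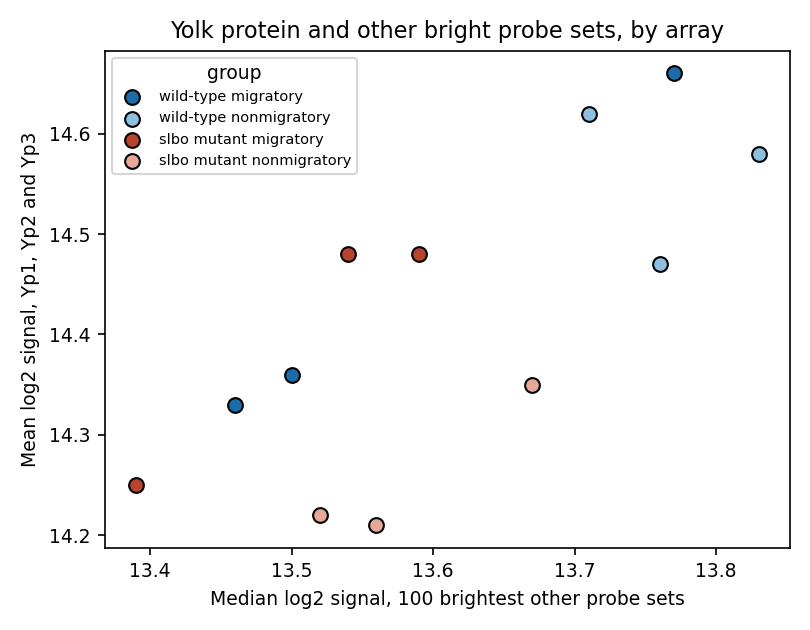
Mean log2 signal of Yp1, Yp2 and Yp3 against the median log2 signal of the 100 brightest other probe sets, 1 point for each of the 12 arrays, coloured by group. The yolk protein mean runs from 14.21 to 14.66. It lies 0.65 to 0.70 above the other bright probe sets on the 3 mutant nonmigratory arrays. On the wild-type nonmigratory arrays it lies 0.71 to 0.91 above them, and on the migratory arrays of both genotypes 0.86 to 0.95.

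The size of differences among bright probe sets depended on the comparison. In nonmigratory cells the median absolute log2 difference between genotypes was 0.22 among the 100 brightest probe sets and 0.12 among the next 400. In migratory cells the median absolute log2 difference between genotypes was 0.05 among the 100 brightest probe sets and 0.19 among the next 400. Between wild-type fractions these values were 0.27 and 0.31, and the share called was 9.0% and 35.2%. Whether the yolk protein signals were saturated was not tested, since the values carry no saturation mark, and a difference near the top of the range can be understated.

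The 3 yolk protein signals also kept close to each other. Over the 12 arrays the log2 difference between Yp1 and Yp2 lay between -0.11 and 0.08 (SD 0.062), that between Yp1 and Yp3 had an SD of 0.087, and that between Yp2 and Yp3 an SD of 0.079. Whether probes of 1 yolk protein gene bind transcripts of another was not tested. The 5 named genes with the pattern most like that of Yp1, by Pearson r of log2 signal over 12 arrays, were Vm34Ca (0.932), the vitelline membrane gene Vm32E (0.909), the ribosomal protein genes RpS26 (0.889) and RpLP1 (0.862), and the splicing factor gene RnpS1 (0.885). For Yp2 they were Vm34Ca (0.938), RpL10Ab (0.878), RpS30 (0.866), RpL17 (0.860) and Rack1 (0.860), and for Yp3 they were RnpS1 (0.881), Vps24 (0.870), Vm34Ca (0.865), Vm32E (0.839) and CG13920 (0.817). By deviations from group means Yp1 was most like Vm34Ca (0.951), RpS26 (0.940), RpL10Ab (0.936), RpL29 (0.928) and Vm32E (0.924). The median rank of these 5 over the arrays lay between 1 and 49, so that they shared with Yp1 a place near the top of the signal range as well as each array's scaling. These correlations describe 12 arrays that share 4 group means, and no test was made of them.

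Markers of follicle cells, the cell type that makes yolk proteins in the ovary, were read in the same comparisons. The list mixed chorion genes, vitelline membrane genes and others, and does not mark yolk-making cells alone. From wild-type to mutant nonmigratory cells the mean signal of the vitelline membrane genes went from 25924.0 to 20926.0 for Vm26Aa. It went from 29896.9 to 22033.3 for Vm34Ca and from 20271.2 to 13964.1 for Vm32E. In mutant nonmigratory cells 6 of 12 were lower than in the wild type and none was higher, where 0.656% of all probe sets were called (median log2 -0.83, against 0.01 over all tested probe sets). Among them were the chorion genes Cp19 (-1.36, adjusted p = 0.00662) and Cp15 (-0.91, adjusted p = 0.0189) and the follicle cell protein gene Fcp3C (-0.93, adjusted p = 0.0105). In migratory cells 1 of 12 was lower, Fcp3C (-0.72, adjusted p = 0.0244), where 1.81% of all probe sets were called (median -0.41). Averaged over fractions 7 of 12 were lower, where 3.25% were called (median -0.60). Between fractions the list median was higher in migratory cells, and no marker was called lower. In wild type 8 of 12 had a log2 difference above 0. The vitelline membrane genes had lower mean signals in wild-type migratory than nonmigratory cells, as the yolk protein genes did. These were 21454.6 and 25924.0 for Vm26Aa, 25270.3 and 29896.9 for Vm34Ca, and 16774.7 and 20271.2 for Vm32E. In wild type 2 of 12 were called higher, where 8.42% of all probe sets were called (median 0.29). In the mutant 6 of 12 were, where 8.29% were called (median 0.74), and averaged over genotypes 6 of 12, where 16.7% were called (median 0.51). The mean log2 signal of the list lay between 11.99 and 12.21 on the mutant nonmigratory arrays and between 12.75 and 13.06 on the wild-type nonmigratory arrays. Of the 3 tested fat body markers none was called in any comparison. The part of either cell type in the yolk protein signals was not tested.

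Germline markers were set beside yl because yl is made in the germline. Averaged over fractions 3 of 11 tested markers rose in the mutant and none fell, where 3.25% of all probe sets were called (median log2 0.55, against 0.01 over all tested probe sets). These were osk, a determinant of the germ plasm (log2 1.13, SE 0.241, adjusted p = 0.0166), orb, an RNA-binding regulator of oocyte transcripts (1.02, adjusted p = 0.0415), and aub, a Piwi family gene (0.87, adjusted p = 0.0339). In single fractions none of the 11 was called, with medians of 0.60 in migratory and 0.61 in nonmigratory cells. Between fractions, averaged over genotypes, the list median was 0.32. There 1 of 11 was called lower in migratory cells, spn-E, and none was called higher, where 16.7% of all probe sets were called. osk gave 272.9, 176.1 and 532.2 in wild-type migratory cells, 107.4, 118.4 and 257.0 in wild-type nonmigratory cells, 573.5, 515.5 and 558.4 in mutant migratory cells and 488.2, 364.3 and 361.1 in mutant nonmigratory cells. Like yl, osk was highest in mutant migratory cells, and within wild-type migratory cells both were highest on replicate 3 and lowest on replicate 2. The list did not share this as a whole. By group means vas, orb, grk, BicC and zpg were also highest in mutant migratory cells. However, nanos, bcd, aub, spn-E and bam were highest in mutant nonmigratory cells, and tud was highest in wild-type migratory cells.

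The summed signal of the 12 germline markers with a probe set lay between 954.1 and 1667.7 in wild-type migratory, 938.8 and 1113.5 in wild-type nonmigratory, 1689.8 and 2028.4 in mutant migratory and 1404.0 and 1713.2 in mutant nonmigratory cells. The genotypes did not overlap within a fraction. The log2 signal of yl minus the mean log2 signal of the list lay between 1.75 and 2.12, 1.68 and 2.12, 2.06 and 2.32, and 1.64 and 2.12 in these 4 groups, so that the groups overlapped once the list was subtracted. The part of the amount of germline material in the yl difference was not tested. The genes most like yl over the 12 arrays were mtrm (r = 0.936), an inhibitor of Polo kinase in oocytes, osk (0.927), the zinc transporter gene ZnT35C (0.925), orb (0.917) and CG16749 (0.905). With the median log2 signal of the 100 brightest other probe sets, yl had r = -0.84, and the part of that level in the yl differences was not tested. Gut and hemocyte markers were read too, with probe sets for 11 of 12 and 6 of 7 genes, of which 1 and 4 had a mean signal under the absent level. The summed gut signal lay between 1942.0 and 5132.8 in wild-type and between 9049.1 and 25246.6 in mutant arrays. The hemocyte sum lay between 103.8 and 208.0 in wild-type and between 202.2 and 278.7 in mutant arrays. In the average, where 3.25% of all probe sets were called, 7 of 10 tested gut genes and 1 of 2 tested hemocyte genes, Pxn, were higher. The hemocyte sums of the genotypes overlapped over both fractions together but not within either fraction. After adjustment for the mean gut level of each array, a setting chosen after the data were seen, the yl difference averaged over fractions was -0.19 (adjusted p = 0.942); the list mean did not overlap between genotypes, lying between 6.35 and 7.82 in wild-type and between 7.98 and 9.65 in mutant arrays, so that gut material and genotype cannot be told apart. Of 6 tested muscle markers none was called between genotypes.

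**Figure D4:**
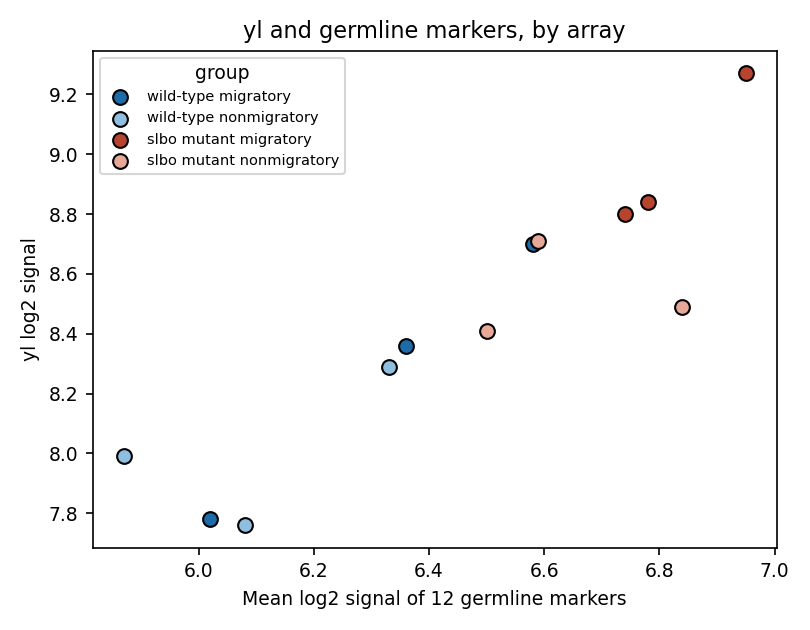
Log2 signal of yl against the mean log2 signal of 12 germline markers, 1 point for each of the 12 arrays, coloured by group. Arrays with a higher list mean mostly have a higher yl signal, and the mutant arrays, with list means of 6.50 to 6.95, lie to the right of the wild-type arrays of the same fraction.

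Genes that act with these 4 were read from lists. Of 20 genes of yolk uptake and coated vesicles 15 were tested. In wild-type migratory cells 3 were higher than in nonmigratory cells, the clathrin light chain gene Clc (log2 0.49, adjusted p = 0.0318) and the adaptor genes AP-2alpha (0.55, adjusted p = 0.0222) and AP-1-2beta (0.46, adjusted p = 0.0170). The uncoating chaperone gene Hsc70-4 was lower (-0.51, adjusted p = 0.0145), and the list median was 0.36, against 0.01 over all tested probe sets. In the mutant AP-1-2beta (0.51) and the epsin gene lqf (0.61, adjusted p = 0.0145) were higher and Hsc70-4 was lower (-0.54). These counts, 4 of 15 in wild type and 3 of 15 in the mutant, stand beside 8.42% and 8.29% of all probe sets. Averaged over genotypes 6 were higher and 1 was lower, where 16.7% of all probe sets were called, and the higher ones included AP-2mu (0.37) and AP-2sigma (0.37), which were picked after their values were seen. Between genotypes none of the 15 was called in either fraction or in the average.

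Proteases that are known to act in lysosomes and in yolk breakdown were higher in migratory cells. All 4 listed genes were called when averaged over genotypes, where 16.7% of all probe sets were, led by the cathepsin L gene CtsL1 (log2 0.74, SE 0.0966, adjusted p = 8.89e-05) and followed by CtsB (0.49), CtsK1 (0.39) and cathD (0.32). Within wild type 3 were higher, where 8.42% of all probe sets were called. Within the mutant 2 were higher, CtsL1 (0.72) and CtsB (0.43), where 8.29% were called. None was called between genotypes. Among 15 tested regulators of yolk gene transcription only ftz-f1, a nuclear receptor gene, was called. It was higher in migratory cells of the wild type (log2 1.60, adjusted p = 0.000827) and the mutant (1.19, adjusted p = 0.00746), and no regulator was called between genotypes. The count of 1 of 15 between fractions, in wild type and in mutant, stands beside 8.42% and 8.29% of all probe sets. Of 4 tested genes of the lipoprotein receptor family and lipoprotein assembly, Mtp, which loads lipid onto lipoproteins, was higher in wild-type migratory than nonmigratory cells (1.09, adjusted p = 0.00158) and lower in mutant than in wild-type migratory cells (-0.78, adjusted p = 0.0425). The count of 1 of 4 stands beside 8.42% and 1.81% of all probe sets in these comparisons. The Mtp difference between genotypes kept its direction in all 23 settings run but lost its call in 11.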

How the data were processed

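The deposited intensity values were MAS5 signals, per the submitters' processing notes (version not stated), 1 column per array. Their trimmed means (2% left out at each side) lay between 150.026 and 150.03, and precision is limited by how few arrays there were. Of 14010 probe sets 44 were controls, 12442 had 1 gene in the platform annotation, 327 several and 1197 none; 0 symbols changed on update. Each array's values were taken as log2 after adding 5% of its trimmed mean (7.5). The 9753 probe sets above the array's 40th percentile on at least 3 arrays were tested, without collapsing probe sets to genes. The mean of each of the 4 groups was fitted by limma (version 3.58.1, R 4.3.3) with a variance trend and Benjamini-Hochberg adjustment over all 9753; the code was checked on simulated data. Permutation tests used scipy 1.17.1 under Python 3.11.15. Where a listed gene had several probe sets, the brightest was used. The named genes were the 4 members, slbo, from each list up to 4 called genes with the lowest p (or 2 uncalled genes), and the 5 genes most like each member; any others were picked after their values were seen. The members and lists were chosen with earlier results of these data known. Results were recomputed with other settings of scaling, filter, added constant, variance trend, array weights, fits of 2 groups, 1 probe set per gene, the replicate number as a block and each array left out in turn; centring on bright probe sets and the gut list as a covariate were added later. No table of sequences was used here.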

Additional observations from a re-analysis of the deposited data

How the results depend on the processing

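All values here are log2 differences or counts of called probe sets, and in all but the cases named the members kept their direction and stayed on the same side of the threshold. With quantile normalization the wild-type fraction difference was 0.0357 for Yp1, 0.0353 for Yp2 and 0.212 for Yp3, all turned in sign. The interaction became -0.042, -0.0353 and -0.0595 for the same 3 genes. For Yp1 the mutant fraction difference became -0.00629. The genotype difference in nonmigratory cells became 0.0301 for Yp1 and 0.0654 for Yp2, and that averaged over fractions 0.0091 and 0.0478. The averaged fraction difference of Yp3 became 0.182 and was called. Centring on the 100 brightest other probe sets gave wild-type fraction differences of 0.0953, 0.0281 and 0.125 for Yp1, Yp2 and Yp3, a migratory genotype difference of 0.0196 for Yp1, and called fraction differences of 0.145, 0.134 and 0.179 averaged over genotypes and of 0.239 for Yp2 in the mutant. Median centring turned the migratory genotype difference of Yp2 to -0.115. Array weights gave averaged fraction differences of -0.00304 for Yp1 and -0.011 for Yp2 and an interaction of -0.0172 for yl. Under quantile normalization the values of Yp1 and Yp2 follow from their places among ranks 1 to 4 on each array, so their turned signs there reflect swaps of top ranks. The cause of the other changes was not tested.

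The yl difference averaged over fractions lay between 0.481 and 0.735 in 23 alternatives, with adjusted p from 0.0173 to 0.144, and the call was lost in 15 of them. It was 0.528 with median centring, 0.607 without the filter, 0.618 with an added constant of 1%, 0.607 without the variance trend and 0.735 with centring on bright probe sets. Adjusted for each array's gut list mean, yl gave -0.189 there, -0.0888 in the mutant fraction difference, -0.255 for the genotypes within migratory cells and -0.124 within nonmigratory cells, -0.13 in the interaction and -0.0236 in the averaged fraction difference. The cause was not tested.

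Leaving out 1 array at a time gave migratory genotype differences from -0.127 to 0.0515 for Yp1, -0.0429 to 0.105 for Yp2 and -0.169 to 0.026 for Yp3, and averaged fraction differences from -0.0361 to 0.0659, -0.0465 to 0.0379 and -0.016 to 0.0845. The wild-type fraction difference of Yp3 ran from -0.186 to 0.0152. For yl the interaction ran from -0.0821 to 0.382, the averaged fraction difference from 0.244 to 0.476 and the averaged genotype difference from 0.481 to 0.714.

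Same-numbered replicates did not deviate together (correlations of deviations between -0.076 and 0.077), so the number was not taken as a pairing. With the replicate number as a replicate block the yl genotype difference was 0.607 (adjusted p = 0.0476), and no call of a member changed. Without the variance trend the counts of called probe sets were 473 and 391 between fractions in wild type and mutant (821 and 809 in the main analysis), 91 and 14 for the genotypes within migratory and within nonmigratory cells (177 and 64) and 182 in the average (317). A fit of the 2 groups alone gave 491 for the wild-type fractions. Leaving out 1 array gave 455 to 973, 370 to 967, 80 to 196 and 18 to 74 in the 4 pairwise comparisons and 0 to 2 for the interaction, where the 2 came without wild-type migratory replicate 3. The 99 results of other named genes, which were not recomputed with centring on bright probe sets or with the gut adjustment, kept their direction in the other settings run, and 52 also kept their call. Each group held 3 arrays, which limits what could be called.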
